A study of Rattus norvegicus with 4 samples.

Results

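Genes of the TGF-beta pathway and genes known as markers of androgen withdrawal were followed in the ventral prostate of rats given PhIP. The set was defined by symbol and holds 10 genes: the ligand genes Tgfb1, Tgfb2 and Tgfb3, the receptor genes Tgfbr1 and Tgfbr2, the latency activator gene Thbs1, the regression markers Clu and Mgp, and the secreted factor genes Sfrp1 and Gas6. Every probe set that the platform annotation maps to 1 of these symbols alone was taken, which gave 15 of 31042 probe sets for 8 of the 10 genes. No probe set is named here for Tgfbr2 or Thbs1, so both are without a value. Tissue came from male F344 rats, an inbred laboratory strain, aged 6 weeks. The treated group had received PhIP, one of the heterocyclic amines that form in cooked meat, at 300 mg/kg and the control group had not, and both were killed after 2 days. There were 4 rats a group, and each array combined RNA of 2 of them, so there were 2 control and 2 PhIP arrays. The spread between arrays is therefore a spread between pools, and it does not show the spread between single rats.

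TGF-beta ligands are secreted in a latent form bound to matrix, are released by proteins such as thrombospondin and integrins, and signal through a pair of serine/threonine kinase receptors to SMAD transcription factors. In the prostate they are known to restrain epithelial growth and to act on stromal cells. When androgen is withdrawn, the ventral prostate regresses, and clusterin and matrix Gla protein transcripts are known to become more abundant, together with those of TGF-beta signalling.

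Values are MAS5 signals on a linear scale, and the number of arrays limits their precision. Differences are PhIP minus control on the scale of log2(signal + 10), which understates changes of dim probe sets, and are given with the standard error of limma's moderated fit over 18625 tested probe sets. The arrays' median signals were 25.5 and 27.4 for control, and 23.2 and 23.1 for PhIP. Control 2 stood apart, with the lowest correlations with the other arrays (0.964 to 0.972). Its 3′ to 5′ signal ratio for actin, a measure of RNA integrity, was 5.71 against 3.49 to 4.18 on the other arrays. Member differences and list medians that moved by over 1.5 times without it, or turned sign, are given without it as well. Pbsn, which encodes the prostate secretory protein probasin, had signals of 4273 to 4898.1 over the 4 arrays, as a check that the tissue was prostate. It was not used to check the lobe. A call was an adjusted p under 0.05 over all tested probe sets.

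Of the 12 member probe sets bright enough to be tested, 0 passed the adjusted p of 0.05 in limma, against a background of 0.0268% of all tested probe sets. Lower in PhIP at an unadjusted p below 0.05 in limma were 5 of the 12, and 1 was higher. The background at that p was 7.61% for lower and 5.36% for higher. The 5 belonged to Tgfb1, Tgfb2, Mgp, Sfrp1 and Gas6, and the 1 to Tgfbr1. Only 4 of the 5 came from probe sets whose mean log2 value was above the filter on low values, the 40th percentile over all probe sets, in both groups. The Tgfb2 probe set passed that filter through the control arrays alone, so it had to differ. Without such probe sets, a count added after the data had been seen, 4 of 11 member probe sets were lower and 1 higher, beside 6.96% and 5.44% of all probe sets.

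The member counts depended on single arrays. Without control 1 the 5 and another Gas6 probe set were lower (background 14.5%). Without control 2 there were 3 lower (background 8.09%): Tgfb2 1387172_a_at and Mgp remained, those of Tgfb1, Sfrp1 and Gas6 did not, and Clu 1367784_a_at entered. Without PhIP 1 the count was 0 (background 3.77%). Without PhIP 2 it was 3 (background 3.89%), of Tgfb1, Tgfb2 1387172_a_at and Mgp, and the higher count was 0 (background 1.73%). With arrays centred on their medians 1 was lower, Tgfb2 1387172_a_at (backgrounds 3.46% lower and 13.5% higher). Scaling to the hybridization controls left the same 1 (backgrounds 1.92% and 20.8%). The lowest adjusted p of any member was 0.216, so all member differences below are given as values.

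Among the ligand genes, Tgfb1 and Tgfb2 had lower signals in PhIP than in control, while Tgfb3 lay within the control range. Tgfb1, the best known ligand of the family, had signals of 34.1 and 40.4 on control arrays, against 15.6 and 25.1 after PhIP. Both PhIP arrays lay below both control arrays, and the difference was −0.65 ± 0.24 (limma adjusted p = 0.335), a fold of 0.636 on the scale of signal + 10, as for the folds below. Tgfb2 encodes another ligand of the same receptors and has a pair of probe sets. In 1387172_a_at the signals were 32.5 and 34.2 in controls against 10 and 17.1 in PhIP. The difference was −0.90 ± 0.25 (adjusted p = 0.221), a fold of 0.537. The geometric mean of its signal plus 10 was 43.3 in controls but 23.3 in PhIP, below the filter's 24.3, so it was tested only because the control arrays were higher, and its p is no support for a difference. In the other, 1388011_a_at, the signals were 22.8 and 36.5 in controls against 19.1 and 25.7 in PhIP. The groups overlapped there, the difference was −0.28 ± 0.26 (adjusted p = 0.671), and it was −0.025 without control 2. All 3 probe sets lay not far above the filter: their mean log2 values were at percentiles 52.5 (Tgfb1), 48.3 (1387172_a_at) and 51.2 (1388011_a_at) of all probe sets.

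Tgfb3, a ligand known for its part in epithelial and mesenchymal remodelling, had a mean log2 value at percentile 90.5. Its signals were 316.4 and 358.7 in controls against 348.9 and 343.5 in PhIP. The PhIP values lay between the control values, and the difference was 0.038 ± 0.12 (95% interval −0.23 to 0.31, adjusted p = 0.908). It was −0.050 without control 1 and 0.13 without control 2. A scaling of an array cancels from the log2 ratio of the signals of a pair of genes, taken with no constant. The ratio of Tgfb1 to Tgfb3 was −3.21 and −3.15 in controls against −4.48 and −3.77 in PhIP, a change of −0.95 without overlap. This ratio and the 2 others below were chosen after the values had been seen, so they are given with no test.

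**Figure D1:**
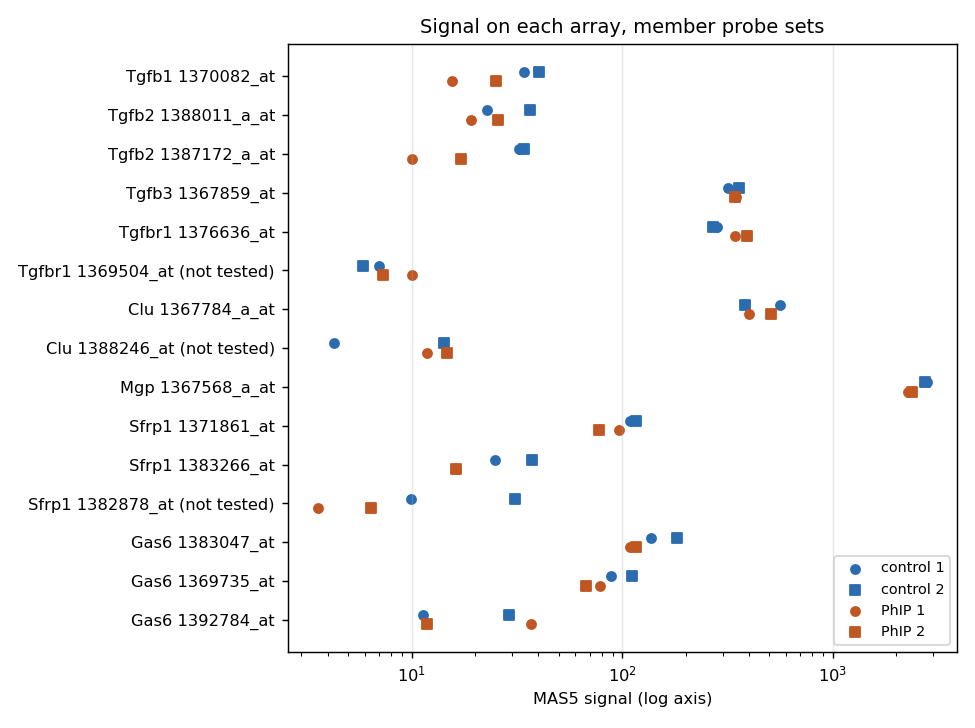
MAS5 signal on each of the 4 arrays (log axis) for the 15 member probe sets, blue for control and orange for PhIP, circles for array 1 and squares for array 2. In Tgfb1 and in Tgfb2 1387172_a_at both PhIP arrays lie left of both control arrays, in Tgfbr1 1376636_at both lie right, and in Tgfb3 and Clu 1367784_a_at the groups overlap. The PhIP symbols of Sfrp1 1383266_at coincide.

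Tgfbr1, which encodes the type I receptor kinase, went the other way. In 1376636_at the signals were 281.8 and 270.1 in controls against 343.6 and 390.9 in PhIP. Both PhIP arrays lay above both control arrays, with a difference of 0.40 ± 0.12 (adjusted p = 0.246), a fold of 1.32. This difference exceeded that of 93.8% of tested probe sets. Its adjusted p ranged from 0.0314 without control 1 to 0.937 over the alternatives. In the dimmer 1369504_at, below the filter, the signals were 7 and 5.9 in controls against 10 and 7.3 in PhIP, also without overlap. The within-array log2 ratio of Tgfbr1 to Tgfb1, the genes at the ends of the range of differences and paired for that reason, was 3.05 and 2.74 in controls against 4.46 and 3.96 in PhIP.

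Upstream sequence is shown for the 4 genes with a RefSeq window whose groups did not overlap in a tested probe set. Of these, Tgfb1 had lower and Tgfbr1 higher signals in PhIP. Tgfb2 is among them only through 1387172_a_at, tested only because the control arrays were higher, and its brighter probe set overlapped. Each window holds the 250 bases before the gene's start in RefSeq's GRCr8. Of the 8 measured members 5 have a window here, and Clu, Mgp and Sfrp1 have none. The windows are chr1:90324062-90324311 (plus strand) for Tgfb1, chr13:100792686-100792935 (minus strand) for Tgfb2, chr5:66449148-66449397 (plus strand) for Tgfbr1 and chr16:82747426-82747675 (plus strand) for Gas6. They are printed 5′ to 3′ along the gene, with capitals on the matches to GGGCGG (the Sp1 GC box) and TGTTCT (the androgen receptor half-site) on either strand.
Tgfb1: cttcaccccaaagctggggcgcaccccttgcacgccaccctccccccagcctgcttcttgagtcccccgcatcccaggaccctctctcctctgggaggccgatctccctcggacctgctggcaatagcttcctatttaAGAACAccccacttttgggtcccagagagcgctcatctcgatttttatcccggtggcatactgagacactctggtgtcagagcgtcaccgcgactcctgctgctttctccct
Tgfb2: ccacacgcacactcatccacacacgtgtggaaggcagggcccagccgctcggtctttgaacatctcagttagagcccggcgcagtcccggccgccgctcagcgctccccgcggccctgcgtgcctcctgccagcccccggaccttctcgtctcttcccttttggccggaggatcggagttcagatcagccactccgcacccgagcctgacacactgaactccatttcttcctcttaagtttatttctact
Tgfbr1: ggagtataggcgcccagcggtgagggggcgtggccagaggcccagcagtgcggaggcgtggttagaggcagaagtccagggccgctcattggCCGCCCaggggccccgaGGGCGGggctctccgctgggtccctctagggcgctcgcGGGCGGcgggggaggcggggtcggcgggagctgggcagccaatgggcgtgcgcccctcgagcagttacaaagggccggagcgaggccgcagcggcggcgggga
Gas6: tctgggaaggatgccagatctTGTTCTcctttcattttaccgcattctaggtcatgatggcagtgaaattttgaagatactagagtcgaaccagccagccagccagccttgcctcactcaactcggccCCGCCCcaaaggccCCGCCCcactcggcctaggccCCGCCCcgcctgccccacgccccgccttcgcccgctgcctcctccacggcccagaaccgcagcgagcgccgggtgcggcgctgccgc
TATAAA (the TATA box), TGANTCA (AP-1) and CAGAC (a SMAD-binding core) were searched as well, and none of the 3 matched in these 4 windows. GGGCGG matched at 3 positions in Tgfbr1 (158, 141 and 103 bases before the start) and at 3 in Gas6 (122, 108 and 87 bases), and it is found in 30.5% of all 33469 windows. TGTTCT matched once in Tgfb1 (112 bases before the start) and once in Gas6 (229 bases), and it is found in 17.5% of all windows. CAGAC is found in 42.9%, TATAAA in 12.9% and TGANTCA in 6.34%. The G and C content was 75.6% in Tgfbr1, 65.2% in Gas6 and 61.6% in Tgfb2, against a median of 51.2% over all windows. The Tgfb3 window, not printed, had 48.8% and no match to any of the 5 motifs. A match is a stretch of letters and not a measured site.

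Clu encodes clusterin, a secreted chaperone whose transcript is a long-used marker of castration-induced regression. In 1367784_a_at the signals were 559.3 and 382.8 in controls against 400.1 and 511.2 in PhIP. Both PhIP values lay within the span of the control values, and the difference was −0.033 ± 0.19 (95% interval −0.48 to 0.41, adjusted p = 0.953). Without control 2, its lowest array, the difference was −0.30 (limma unadjusted p = 0.0362, adjusted p = 0.273). Its sign turned without control 1 (0.24), without PhIP 1 (0.14), with median centring (0.10) and with hybridization-control scaling (0.20). The dim 1388246_at, below the filter, had 4.3 and 14.2 in controls against 11.8 and 14.7 in PhIP, with overlap, and its difference of 0.32 was 0.70 without control 2.

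Mgp encodes matrix Gla protein, a secreted vitamin K-dependent protein that inhibits calcification and binds bone morphogenetic proteins. Its signals were 2799 and 2740.2 in controls against 2272.3 and 2387 in PhIP. The arrays of a group lay close together, and both PhIP arrays lay below both control arrays. The difference was −0.25 ± 0.07 (adjusted p = 0.216), a fold of 0.842 and the lowest p among members. Scaling to the hybridization controls adds 0.23 to the difference of every probe set alike, which moved the median of all tested from −0.025 to 0.20 and left −0.021 for Mgp. The within-array log2 ratio of Clu to Mgp was −2.32 and −2.84 in controls against −2.51 and −2.22 in PhIP, with overlap.

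Sfrp1 encodes a secreted antagonist of WNT ligands that prostate stroma is known to make. In its brightest probe set, 1371861_at, the signals were 108.4 and 116.4 in controls against 96.7 and 77.9 in PhIP, a difference of −0.34 ± 0.16 (adjusted p = 0.431). In 1383266_at they were 25 and 37.2 in controls against 16.3 and 16.2 in PhIP, a difference of −0.63 ± 0.25 (adjusted p = 0.348). The third probe set, 1382878_at, was below the filter, with 9.9 and 31.1 in controls against 3.6 and 6.4 in PhIP. In all 3 probe sets both PhIP arrays lay below both control arrays. In the dimmer pair control 2 was the highest array, and without it their differences were −0.41.

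Gas6 encodes a vitamin K-dependent ligand of the receptor kinases Axl, Tyro3 and Mertk, with a role in the clearance of dying cells. In 1383047_at the signals were 137.5 and 182.1 in controls against 109.3 and 115.9 in PhIP, a difference of −0.46 ± 0.17 (adjusted p = 0.327). In 1369735_at they were 88.1 and 110.9 in controls against 78.9 and 67.4 in PhIP, a difference of −0.39 ± 0.18 (adjusted p = 0.406). The groups did not overlap in either, and control 2 was the highest array in both. Without control 2 the differences were −0.27 and −0.24. The dim 1392784_at did not follow them, with 11.3 and 29.1 in controls against 36.8 and 11.9 in PhIP, a difference of 0.15 ± 0.42. It was 0.59 without control 2, and its sign turned without control 1 (−0.29) and without PhIP 1 (−0.40).

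**Figure D2:**
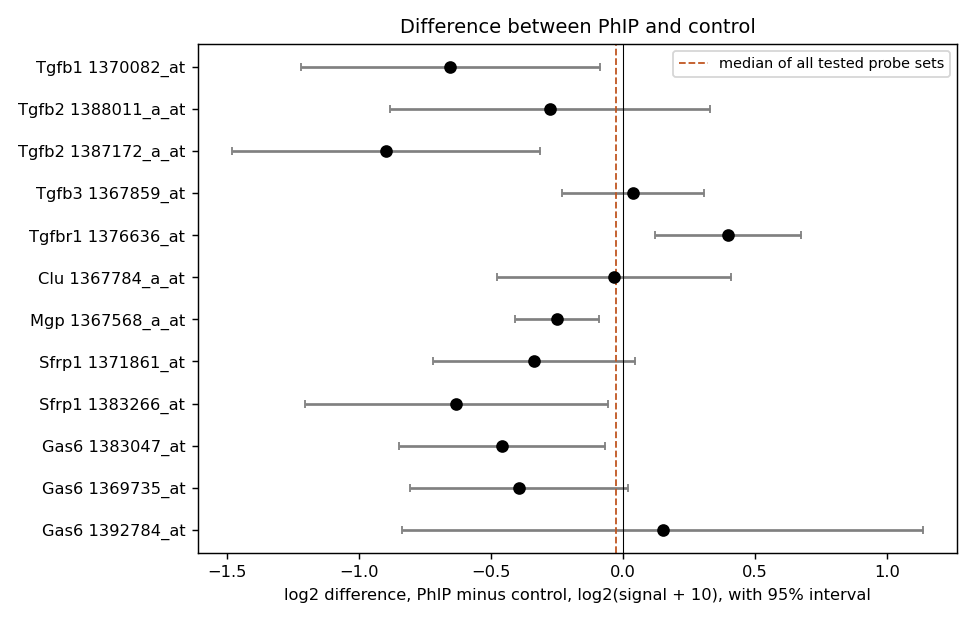
Difference between PhIP and control on the log2(signal + 10) scale for the 12 tested member probe sets, points with 95% intervals from limma, the dashed line the median of all tested probe sets (−0.025). Of the intervals, 5 lie wholly below 0 and that of Tgfbr1 wholly above, before adjustment over all probe sets.

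Both PhIP arrays lay below both control arrays in 7 of the 12 tested member probe sets and above them in 1. Over all tested probe sets these shares were 26.0% and 19.8%. Without probe sets above the filter in 1 group only, 6 of 11 were lower, beside 24.7% of all. Several of the 7 share a gene: 2 are of Sfrp1 and 2 of Gas6. With 1 probe set a gene, the brightest, 6 of the 8 genes were lower and 2 higher by sign, from −0.65 for Tgfb1 to 0.40 for Tgfbr1. Clu (−0.033) and Tgfb3 (0.038) lay near 0. Without overlap 4 of the 8 were lower and 1 higher. The median over the 8 genes was −0.26, beside −0.025 over all tested probe sets, and it was −0.13 with median centring, −0.035 with hybridization-control scaling and −0.17 without PhIP 1. Those scalings moved the median of all tested probe sets to 0.11 and 0.20, and since they shift every probe set alike, by 0.14 and 0.23, values relative to that median are the same under them by construction. Relative to it Tgfb1 had −0.63, Tgfbr1 0.42 and Gas6 (1383047_at) −0.43.

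Without control 1, 3 member probe sets passed the adjusted p in limma: Tgfbr1 (0.43, adjusted p = 0.0314), Mgp (−0.23, adjusted p = 0.0416) and Gas6 1383047_at (−0.65, adjusted p = 0.0136). That fit assumes that the remaining control array varies as the PhIP arrays do, and 2334 probe sets passed in it against 5 with all 4 arrays.

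**Figure D3:**
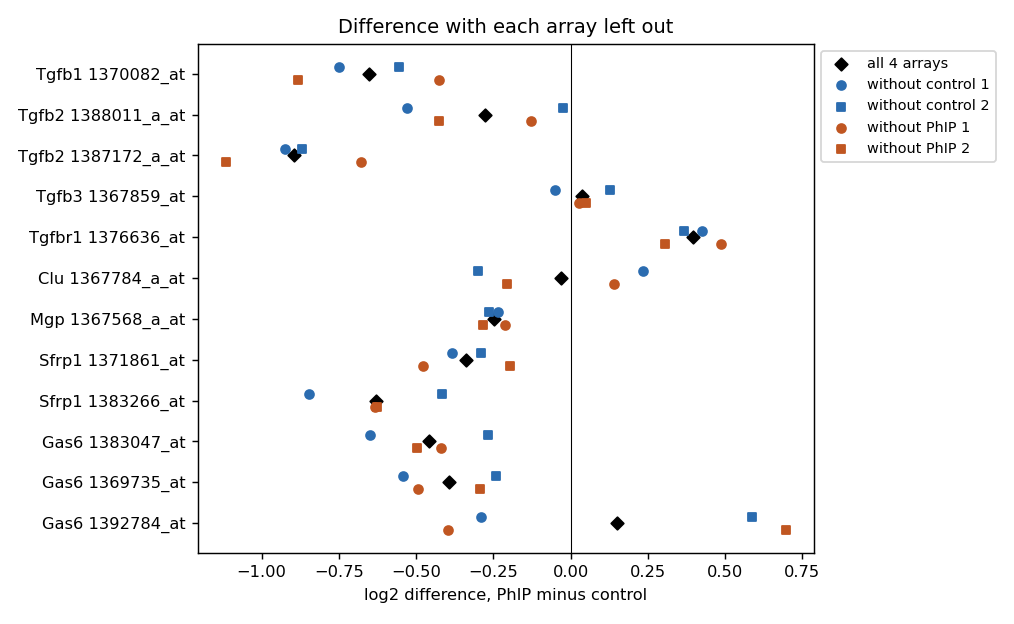
Difference between PhIP and control (log2 scale) for the 12 tested member probe sets with all 4 arrays (diamonds) and with each array left out, blue for a control array and orange for a PhIP array. Tgfb1, both Tgfb2 probe sets, Mgp, both Sfrp1 and the brighter pair of Gas6 probe sets stay left of 0, Tgfbr1 stays right of 0, and Tgfb3, Clu and Gas6 1392784_at fall on both sides.

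The other genes of the pathway were taken from lists, each gene by its brightest probe set. Over 108 tested genes of these lists, 22 (20.4%) were lower and 9 (8.33%) higher at an unadjusted p below 0.05 in limma, beside the backgrounds of 7.61% and 5.36%, and 0 passed the adjusted p. Without control 2 there were 25 lower and 10 higher (backgrounds 8.09% and 7.87%), and 10 passed the adjusted p. Without PhIP 1 there were 12 lower and 4 higher (backgrounds 3.77% and 2.12%), and without PhIP 2 12 and 3 (3.89% and 1.73%). Without control 1, 25 were lower and 22 higher (backgrounds 14.5% and 13.8%), and 29 passed the adjusted p. With median centring 12 were lower and 14 higher, beside backgrounds of 3.46% and 13.5%, and with the hybridization controls 4 and 22, beside 1.92% and 20.8%. Genes that hold TGF-beta latent or release it had a median of −0.31, with 4 of 9 lower at that p and 0 higher. They included the fibrillin gene Fbn1, whose microfibrils bind latent complexes (−0.85 ± 0.15), the latent TGF-beta-binding protein genes Ltbp1 (−0.58 ± 0.19) and Ltbp4 (−0.31 ± 0.11), and the fibronectin gene Fn1 (−0.46 ± 0.14). Furin, the protease that cleaves the ligand precursors, had 0.081 ± 0.09, and the integrin gene Itgav 0.078 ± 0.16. Ltbp1 and Ltbp4 were named after their values were seen.

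Ligand traps and antagonists had a median of −0.40, with 3 of 7 lower and 0 higher at that p (backgrounds 7.61% and 5.36%). The 7 include Fmod, named after its value was seen, with 23.6 and 22.2 in controls against 18.9 and 8.3 in PhIP. It passed the filter through the control arrays alone, so its difference of −0.52 had to be negative, and it lowers the list median. Fmod is not among the 3. Fstl1, a secreted follistatin-like protein, had signals of 1021.5 and 925.3 in controls against 571.8 and 563.6 in PhIP, a difference of −0.77 ± 0.10 (limma adjusted p = 0.0517). Its other tested probe sets stood at −0.45 ± 0.12 and 0.033 ± 0.37. The proteoglycan gene Bgn, whose product binds TGF-beta, had −0.54 ± 0.13. Other ligands of the superfamily had a median of −0.34, with 2 of 7 lower and 0 higher, namely Bmp6 (−0.51 ± 0.10) and Bmp4 (−0.51 ± 0.20), which encode bone morphogenetic proteins. Secreted WNT antagonists, the class of Sfrp1, had a median of −0.39, with 2 of 5 lower and 0 higher: Wif1 (−0.60 ± 0.12) and Sfrp4 (−0.56 ± 0.23).

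Other receptors had a median of 0.032, with 1 of 8 lower and 0 higher at that p (backgrounds 7.61% and 5.36%). The 1 was Eng, which encodes the co-receptor endoglin of endothelium (−0.60 ± 0.18). Acvr2b, with 19.4 and 3.7 in controls against 20.8 and 19 in PhIP, passed the filter through the PhIP arrays alone, so it had to be higher. The median includes it. SMAD genes and their regulators had a median of 0.036, with 3 of 14 lower and 0 higher. The 3 were Smurf2 (−0.35 ± 0.12) and Nedd4l (−0.48 ± 0.17), ubiquitin ligases that act on SMADs and receptors, and the inhibitory Smad7 (−0.73 ± 0.27), the last named after its value was seen. Smad7 had signals of 60.8 and 59 in controls against 22.2 and 45 in PhIP, with PhIP 1 the lowest array. Smad2, a transducer of TGF-beta signals, had 0.37 ± 0.18, and Zfyve9, which encodes the adaptor that presents it to the receptor, 0.45 ± 0.24. Neither passed that p (limma unadjusted p = 0.0703 and 0.0946). Smad2 had signals of 112.2 and 92.3 in controls against 118.8 and 152 in PhIP. Those of Zfyve9 were 45.9 and 27.3 in controls against 50.8 and 54.1 in PhIP. In both genes control 2 was the lowest array.

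Target genes of the pathway had a median of −0.050, with 3 of 15 lower and 0 higher at that p (backgrounds 7.61% and 5.36%). The actin-binding gene Tagln (−0.47 ± 0.10), also a smooth muscle marker, the collagen cross-linking gene Loxl2 (−0.85 ± 0.19) and Pmepa1, a feedback inhibitor named after its value was seen (−0.52 ± 0.15), were lower. Ccn2, which encodes connective tissue growth factor, had 868.1 and 737.2 in controls against 1040.1 and 887.2 in PhIP (0.26 ± 0.12). The early response gene Junb had 145 and 78.1 in controls against 123.6 and 167.5 in PhIP (0.40 ± 0.27). Its groups overlapped, and control 2 was its lowest array. The relatives and receptors of thrombospondin had a median of 0.042, with 0 of 5 lower or higher at that p. Of the receptors of Gas6 and the genes of vitamin K-dependent carboxylation, with a median of −0.042, 1 of 7 was lower and 0 higher. The 1 was Axl, with signals of 208.3 and 191.4 in controls against 150.5 and 153.3 in PhIP (−0.37 ± 0.13), while the carboxylase gene Ggcx had 0.076 ± 0.09.

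Other androgen-withdrawal markers went in both directions, with a median of −0.17. At the unadjusted p below 0.05 in limma 3 of 19 were lower and 4 higher (backgrounds 7.61% and 5.36%). The lower ones were the transglutaminase gene Tgm2 (−0.48 ± 0.10) and the growth factor-binding genes Igfbp5 (−0.44 ± 0.10) and Igfbp2. The dimmer Tgm2 probe set had −0.31 ± 0.34, with overlap. Other tested Igfbp5 probe sets had −0.84 ± 0.16, −0.43 ± 0.27 and −0.068 ± 0.38, the last with overlap. The higher ones were the protease inhibitor gene Timp1 (0.36 ± 0.09), the glutathione transferase genes Gstm2 (0.41 ± 0.10) and Gstm1, and the death receptor gene Fas (0.74 ± 0.30), a known p53 target. The brightest of the 3 Fas probe sets was dim, with 26.6 and 11.5 in controls against 32.8 and 41.2 in PhIP. Control 2 was its lowest array. Igfbp2, Gstm1 and Fas were named after their values were seen. Androgen-dependent secretory and luminal genes had a median of −0.030, with 0 of 12 lower and 5 higher, among them the spermine-binding protein gene Sbp (0.25 ± 0.07) and the transporter gene Slc45a3 (0.30 ± 0.08). Without control 2, the medians of this list (0.068), the target genes (−0.15), the other receptors (−0.077), the SMAD genes (−0.050) and the thrombospondin list (−0.10) turned sign or moved by over 1.5 times, as did that of the Gas6 list (−0.090). With other arrays left out, the signs also turned for the target genes (0.088 without control 1 and 0.052 without PhIP 1), this list (0.026 and 0.085), the SMAD genes (−0.0038 without PhIP 1) and the other receptors (−0.0096 without PhIP 2). The trap list's median was −0.19 without PhIP 2. Since the hybridization-control scaling adds 0.23 to every gene alike, list medians between −0.23 and 0 turn positive with it by construction.

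**Figure D4:**
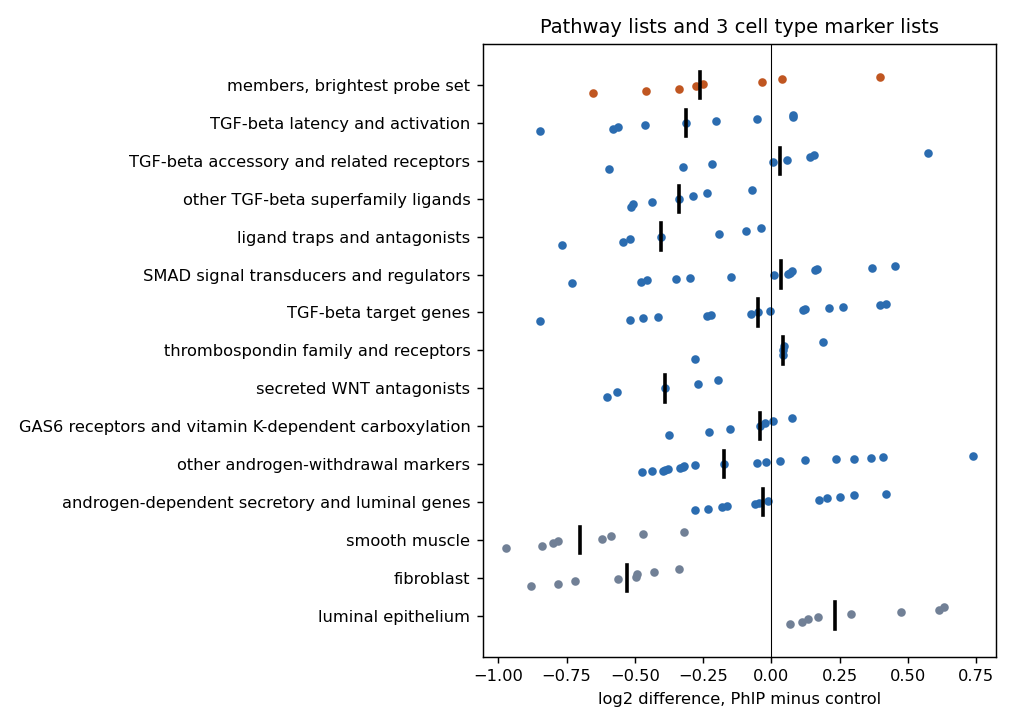
Difference between PhIP and control (log2 scale) for each tested gene, 1 point a gene, with black bars for medians: the 8 measured members (orange), 11 pathway lists (blue) and 3 cell type marker lists (grey). Medians of the latency, superfamily ligand, trap and WNT antagonist lists lie between −0.40 and −0.31, those of smooth muscle and fibroblast markers at −0.70 and −0.53, and that of luminal markers at 0.23. The trap list includes Fmod and the receptor list Acvr2b, each tested only because 1 group was higher.

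Markers of the cell types in the lobe differed between the groups as well. Over all tested probe sets, 26.0% were lower and 19.8% higher in PhIP without overlap. Each of the 8 smooth muscle markers was lower in PhIP without overlap (median −0.70), and their summed signal was 5201 to 5294 in controls against 3194 to 3344 after PhIP. The 8 fibroblast markers, all lower and 7 of them without overlap, had a median of −0.53 and sums of 8374 to 10462 in controls against 5868 to 5942 after PhIP. The 8 luminal epithelial markers were all higher without overlap (median 0.23), with sums of 8702 to 8711 and 10087 to 10135. Basal markers had a median of −0.30, with 5 of 5 lower, 3 of them without overlap (sums 1119 to 1139 and 987 to 1092). Of the 5, Krt5 and Krt15 stood at −0.0016. Endothelial markers had −0.35, with 6 of 6 lower, 5 of them without overlap (302 to 313 and 219 to 228). Macrophage markers had −0.056, with 4 of 7 lower, 1 of them without overlap, and 3 higher without overlap (5298 to 5407 and 6655 to 6690.5). Most of the macrophage sum was Lyz2, 1 of the 3 (4465.1 and 4256.6 in controls, 5321.2 and 5372 in PhIP). Adipocyte markers had −0.86, with 4 of 4 tested lower, 3 of them without overlap (265 to 378 and 112.5 to 209). Skeletal muscle markers had −1.33, with 6 of 6 lower, 4 of them without overlap (904 to 1602 and 420 to 502.5). Red blood cell markers had −1.02, with 3 of 3 tested lower without overlap (1824 to 2628.5 and 921 to 1383). Nerve markers had −0.71, with 3 of 4 tested lower and 1 higher, all without overlap (426.5 to 562 and 520 to 592). Most of the nerve sum was Mbp, the 1 that was higher (421.9 and 272.7 in controls, 505.9 and 454.9 in PhIP). The skeletal muscle values rested on control 2, where Myl1, a myosin light chain gene, had a signal of 305.6 against 5.2 on control 1, and 4.5 and 9.1 in PhIP. Without control 2 their median was −0.56 and 4 of 6 were lower, with Myl1 at 0.13 and the myosin heavy chain gene Myh4 at 0.53. Without control 1 it was −2.22. The macrophage median was 0.26 without control 2, and it was 0.057 or 0.24 when PhIP 1 or PhIP 2 was left out. The adipocyte median was −0.52 without PhIP 1 and −1.29 without PhIP 2. No marker was at 0 on any array. Adipoq (3.5 and 19.5 in PhIP), Tnni2 (2.9 and 4.6), Myl1 and Myh4 (6.6 and 3.8) had a mean log2 value below the filter in PhIP. They were tested only because control arrays were higher, so with all 4 arrays they had to be lower. The adipocyte and skeletal muscle counts and medians include them. Adipoq and Tnni2 were named after their values were seen. In bulk tissue, fewer cells of a type and less RNA per cell cannot be told apart, and the part of these markers in the member differences was not tested.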

How the data were processed

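The deposited values are linear intensities from MAS5, per the submitters' processing notes. The version of MAS5, its scaling target and its detection calls were not used here. The mean signal trimmed by 2% at each end was 100.0 on each array. Input was 5 µg of total RNA, labelled with biotin as cRNA, per the labels' protocols. Gene names came from the platform annotation, in which 20832 of 31099 carry 1 symbol, and 20764 of those matched the RefSeq gene table of GRCr8 by Entrez identifier. The 57 manufacturer controls were left out.

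Signals were analysed as log2(signal + 10), the constant being 10% of the trimmed mean. Probe sets above the 40th percentile of mean log2 value were tested (18625; the lowest had a mean signal plus constant of 24.3), without regard to group. PhIP was compared with control by limma (version 3.58.1 in R 4.3.3; lmFit, then eBayes with a trend on intensity; 2 residual and 5.67 prior degrees of freedom), two-sided, with Benjamini-Hochberg adjustment over all tested probe sets. The fit was also run on simulated data with independent noise and no outlying array, which does not test how it behaves on these 4 arrays. Plots were drawn with matplotlib 3.10.9. No value adjusted over the members alone was computed. All members were named, and of each list up to 2 genes in each direction with the largest moderated statistic, of which the text gives those it needs; others are marked as named after their values were seen. The members and lists were chosen with earlier results of these data known. Alternatives were other constants, filters, scalings and eBayes settings, the replicate number as a block, and leaving out each array.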

Additional observations from a re-analysis of the deposited data

How the results depend on the processing

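The number of probe sets past the adjusted p of 0.05 in limma, 5 over all tested, was 22 with a constant of 20% of the trimmed mean, 44 with the filter at the 60th percentile, 165 after scaling to the hybridization controls, 52 with robust eBayes and 3 after cyclic loess. It was 0 with median centring, quantile normalization, no filter or eBayes lacking the trend, and 0 to 2334 with 1 array left out. The 5 member probe sets lower at an unadjusted p under 0.05 became 3 with no filter, 2 of 7 tested with the filter at the 60th percentile, 3 after quantile normalization or cyclic loess, and 1 when arrays were centred on medians or scaled to the hybridization controls. With 1 array left out they numbered 0 to 6, those higher 0 to 1, and those past the adjusted p 0 to 3. The median over member genes, −0.26, was −0.13 with median centring, −0.035 with hybridization-control scaling and −0.31 to −0.17 with 1 array left out. Of 180 recomputed differences of the 12 tested member probe sets 7 changed sign: Tgfb3 (−0.050 without control 1), Clu 1367784_a_at (0.10 with median centring, 0.20 with hybridization-control scaling, 0.24 without control 1 and 0.14 without PhIP 1) and Gas6 1392784_at (−0.29 without control 1 and −0.40 without PhIP 1). Of 45 for the 3 not tested 1 did, Clu 1388246_at (−0.061 without control 1). With 1 array left out the 3 tested ones ranged from −0.050 to 0.13, from −0.30 to 0.24 and from −0.40 to 0.70. The cause was not tested.

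The labels number the arrays 1 and 2 in both groups. The correlation of deviations between same-numbered arrays was −0.056. With 2 arrays a group, this cannot tell whether they share more than a number. With the replicate block, 35 probe sets passed the adjusted p, and the member counts were the same, 5 lower, 1 higher and 0 past the adjusted p. With 2 arrays a group and dim signals for Tgfb1, Tgfb2 and some Sfrp1 and Gas6 probe sets, differences of the size seen there could not be told from the spread between arrays after adjustment.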
